A study of Mus musculus with 3 samples.

Results

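Coagulation and fibrinolysis genes were followed in mouse livers subjected to ischemia and reperfusion. The 32 genes were chosen by their gene symbols as known components of clotting and clot breakdown, and all 32 were found among the 23361 genes of the deposited tables. Clotting is a cascade of proteases that the liver secretes as inactive precursors and that ends when thrombin turns fibrinogen into fibrin. It is held in check by the protein C pathway and by tissue factor pathway inhibitor, and fibrin is dissolved again by plasmin, which is made from plasminogen. Hepatocytes supply most of the circulating factors, whereas the endothelium and leukocytes carry the receptors, cofactors and activators that start or restrain the cascade at the vessel wall. The genes were therefore described in 3 classes, namely 21 liver-secreted factors, 9 vascular and leukocyte components and 2 enzymes of the vitamin K cycle.

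Livers came from C57BL/6J mice labelled male and 8 to 10 weeks old, which were fasted for 12 h, with 6 mice per group. The sham group had a laparotomy without vascular occlusion. In the warm ischemia (WI) group the vessels to the left and median lobes, about 70% of the liver, were clamped for 90 min, and in the ischemia followed by reperfusion (IR) group 90 min of clamping were followed by 120 min of reperfusion. Sham livers were collected after 90 min, so the IR sample has no sham control of its own age after surgery, and reperfusion and added time cannot be told apart. Each group is represented by 1 mRNA library, and the number of mice behind a library is not given in the sources used here. No difference therefore has a replicate check or a test, and a gene is called changed only by size, when FPKM + 1 differed at least 2-fold. FPKM is the number of fragments divided by transcript length and by library size, so levels can be compared between genes. Each value comes with 95% bounds, which describe the error of the estimate within a library and not the variation between mice.

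Before the results, 1 property of the libraries has to be stated. Xist, the RNA that coats the inactive X chromosome of female cells, reached 18.9 FPKM in sham, 20.1 in WI and 1.29 in IR. The Y-linked genes Eif2s3y, Kdm5d and Uty were listed at 0 in the sham and WI samples, and in the IR sample they had an FPKM of 13.2, 0.669 and 1.28. Ddx3y, also Y-linked, was at 0 in sham, at 0.00849 in WI and at 8.58 in IR. The libraries labelled sham and WI thus go against the label male, and in every comparison with the IR sample this difference cannot be told apart from reperfusion. The comparison of WI with sham does not carry it. The IR sample also had a larger sum of FPKM (712423, against 475754 in sham and 487912 in WI), of which 12.6% lay in 20 major urinary protein (Mup) genes, against 2.33% and 2.11%. Setting the libraries to the same sum moved the median change of all genes from WI to IR from 0.03 to -0.40 on the log2 scale, and counts of calls among the 32 genes are given under both scalings. Hepatocyte markers were abundant in all 3 libraries (Ttr 4241, 4591 and 5765 FPKM in sham, WI and IR), while Alb was listed at 0 in all 3 libraries because its locus held too many fragments to be processed. They were not steady. Counting Alb, 9 were found in the files, of which 3 were higher in WI than in sham and 1, Serpina3k, was past 2-fold lower. From WI to IR 6 were higher, 2 of them past 2-fold (Apoa1 and Serpina3k). In the IR sample alone, the loci of Mup1, Mup7, Mup10, Mup11, Mup12 and Mup14 also held too many fragments to be processed. The Mup share and the sum of FPKM of that sample may therefore be incomplete, and the scaling to the same sum rests on that sum. All 32 genes had an accepted estimate in every library. Some overlap another gene by position in the annotation (among them F2 with Ckap5, Proz with Pcid2, Ggcx with Mat2a, Habp2 with Nrap, F8 with Fundc2 and Fgg with Gm30097). Strand and exons were not compared, and their values may be less certain for that reason. No gene overlaps Fga, Fgb, Procr, Thbd or Plaur there.

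The classes were set apart by their level. In the sham sample the liver-secreted factors ranged from an FPKM of 25.7 for Pros1, the cofactor protein S, to 2180 for Fgb, the fibrinogen beta chain, with a median of 136. The vascular and leukocyte components ranged from 0.189 for Plat, tissue plasminogen activator, to 4.85 for F8, with a median of 1.16. No vascular gene reached the lowest liver-secreted gene in the sham and WI samples. In the IR sample Thbd, at 21.5, stood above Pros1, at 17.4. Beside the fibrinogen chains, the most abundant messages were those of Kng1 (kininogen), F2 (prothrombin) and Plg (plasminogen), each between 735 and 1059 FPKM in every library, and neighbours in this order had overlapping bounds.

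**Figure D1:**
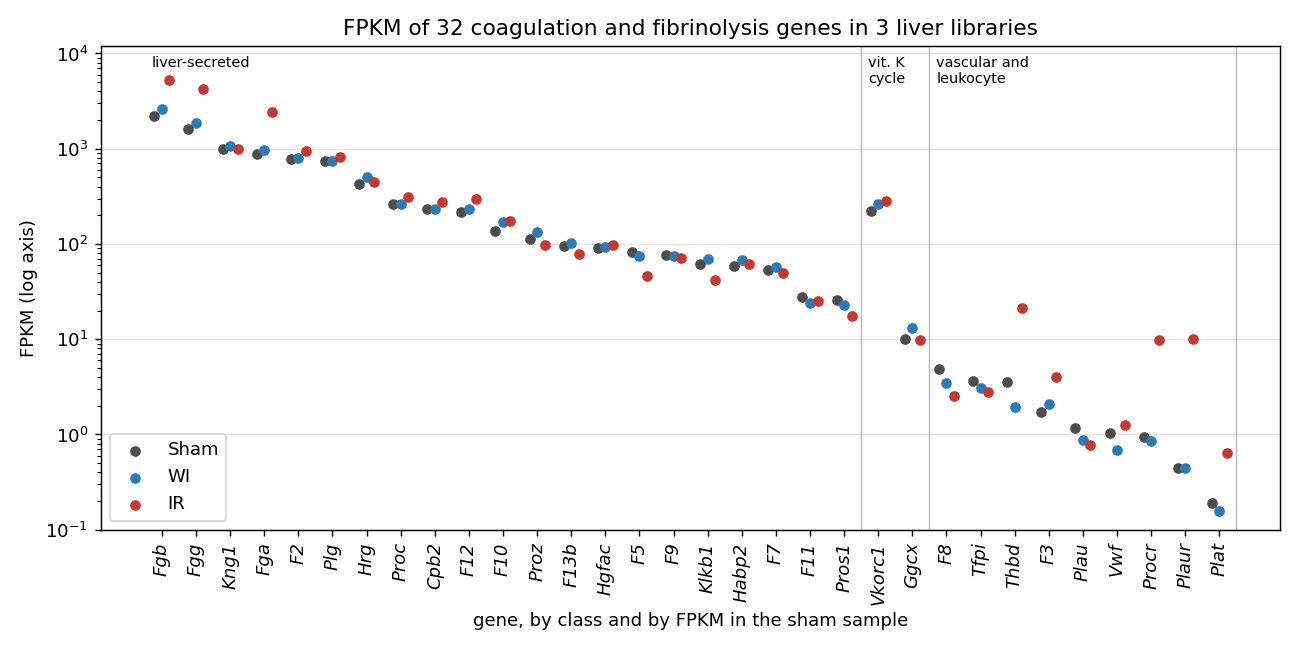
FPKM (log axis) of the 32 genes in the sham, WI and IR samples, 1 point per library, grouped by class and ordered by the sham value. Most liver-secreted genes lie close together in the 3 samples, while Fga, Fgb, Fgg, Thbd, Procr and Plaur stand higher in IR, for example Plaur at 10.1 against 0.441 in sham.

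Of the 32 genes, 31 passed the filter on low values, which kept genes that reached 1 FPKM in 1 or more libraries. Plat did not, with a highest value of 0.639. Procr and Plaur passed only through the IR sample, where they were high, and Plau only through the sham sample, so their place among the genes counted is itself tied to the difference. From sham to WI, 0 of the 31 genes changed at least 2-fold, beside 1.85% of all 10792 genes. From WI to IR, 6 of the 31 genes (19.4%) were at least 2-fold higher, beside 5.78% of all genes, and 0 were as much lower, beside 1.43%. From sham to IR the same 6 genes were at least 2-fold higher, beside 5.35% of all genes, and 0 were lower, beside 2.15%. The 6 genes were the 3 fibrinogen chains, the thrombin receptor Thbd, the protein C receptor Procr and the urokinase receptor Plaur. These comparisons share libraries, so the last count is not a second observation of the one before it. From sham to IR the changes in log2(FPKM + 1) were 2.95 for Plaur, 2.46 for Procr, 2.29 for Thbd, 1.48 for Fga, 1.40 for Fgg and 1.28 for Fgb. With libraries set to the same sum, 3 genes were past 2-fold higher from WI to IR (Thbd, Procr, Plaur), beside 2.86% of all genes, and 2 lower (F5, Klkb1), beside 6.98%. From sham to IR the same 3 genes were then higher, beside 2.39%, and 4 were lower (F5 at -1.37, F8 at -1.11, Klkb1 at -1.09 and Pros1 at -1.08), beside 9.11%. The fibrinogen chains are in neither count.

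The bounds give a stricter reading. From WI to IR they did not overlap for 3 of the 31 genes, Thbd, Procr and Plaur, beside 3.61% of all genes. From sham to IR these were again the 3 genes whose bounds lay apart, beside 3.82% of all genes. From sham to WI there were 0 such genes, beside 0.676%. The bounds of all liver-secreted factors overlapped in every comparison. Over all genes, the median distance from a value to its upper bound was about 52% of the value in each library. Only large differences could therefore set bounds apart. The lower bound of each fibrinogen chain in IR was 0, so these bounds could not lie above those of another library.

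**Figure D2:**
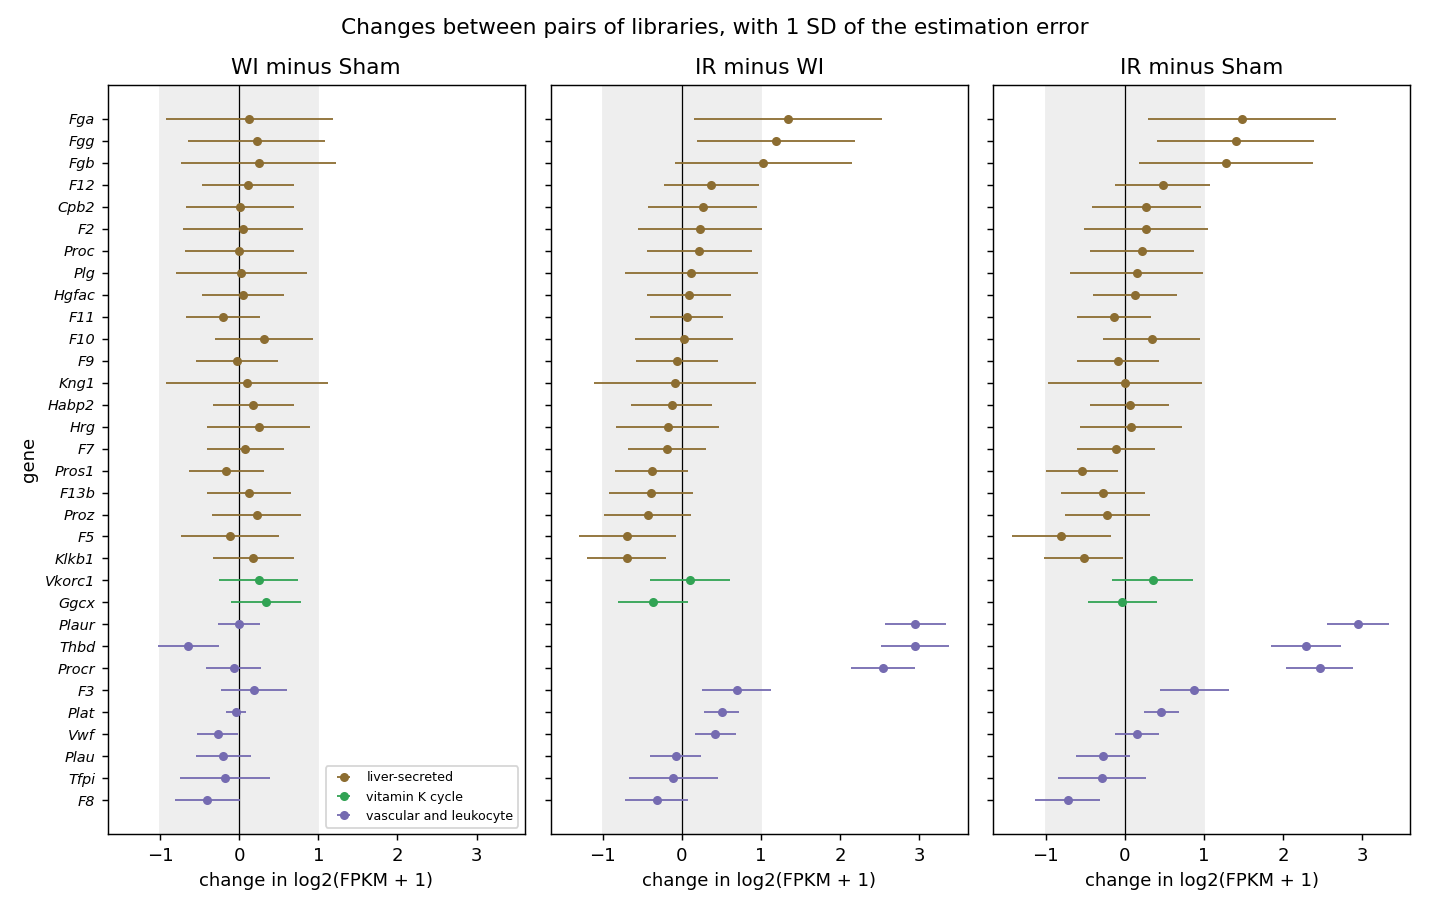
Change in log2(FPKM + 1) of the 32 genes between each pair of libraries, with 1 SD of the estimation error derived from the bounds, and the span under 2-fold in grey. All genes lie within the grey span for WI minus Sham, and for IR minus WI the points of Plaur (2.95), Thbd (2.94) and Procr (2.54) lie farthest to the right.

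Fibrinogen is the precursor of fibrin and is built from alpha, beta and gamma chains, which hepatocytes make in step. Their genes lie next to each other on chromosome 3 of mm10 between 83007896 and 83049790, in the order Fgg, Fga, Fgb, within 41.9 kb. The FPKM of Fga was 879 in sham, 964 in WI and 2449 in IR. Fgb had an FPKM of 2180, 2596 and 5290, and Fgg of 1610, 1873 and 4262, in the same order. All 3 chains were thus close in sham and WI and higher in IR. From WI to IR the change in log2(FPKM + 1) was 1.34 for Fga, 1.03 for Fgb and 1.19 for Fgg, which is 2.54-, 2.04- and 2.28-fold in FPKM. Their bounds were wide, and the lower bound of each chain in the IR sample was 0 (upper bounds 5546 for Fga, 11549 for Fgb and 8816 for Fgg), so the bounds of all 3 chains overlapped between libraries. With libraries set to the same sum, the changes were 0.80, 0.48 and 0.64, still upward and no longer past 2-fold. Relative to the median change of all genes, Fga went from 1.31 as deposited to 1.20 with the same sum and Fgg from 1.16 to 1.04, while Fgb was at 0.88 with the same sum.

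Ratios within a library do not depend on how the libraries are scaled. The level of Fga per Fgb was 0.403 in sham, 0.371 in WI and 0.463 in IR, and that of Fgg per Fgb was 0.738, 0.721 and 0.806, so the 3 chains kept nearly the same proportion while all of them differed between libraries. The chains together held 51.1% of the summed FPKM of the 21 liver-secreted factors in sham, 53.4% in WI and 71.2% in IR. The summed FPKM of the other 18 factors was 4462, 4735 and 4848. Among liver-secreted factors, 3 of 21 (14.3%) were past 2-fold from WI to IR. This share is near that of the 2909 genes that reached 20 FPKM in a library, of which 11.6% were past 2-fold in either direction, a comparison chosen after the values were seen.

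The 250 bases before the start of the fibrinogen genes are shown because the 3 chains were past 2-fold together. They are RefSeq sequences of GRCm38.p6 (the same assembly as mm10), at chr3:83025903-83026152 (plus strand) for Fga, chr3:83049864-83050113 (minus strand) for Fgb and chr3:83007474-83007723 (plus strand) for Fgg, each read 5′ to 3′ toward the gene. Capitals mark letters that match a STAT motif, TTCNNNGAA, or a C/EBP motif, TTGCNNAA, on either strand, factors known for the acute phase response of the liver.
Fga: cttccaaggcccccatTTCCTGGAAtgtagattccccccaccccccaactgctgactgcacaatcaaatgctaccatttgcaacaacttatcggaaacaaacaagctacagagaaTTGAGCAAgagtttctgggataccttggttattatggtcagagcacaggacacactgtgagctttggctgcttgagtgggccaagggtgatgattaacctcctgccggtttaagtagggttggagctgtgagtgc
Fgb: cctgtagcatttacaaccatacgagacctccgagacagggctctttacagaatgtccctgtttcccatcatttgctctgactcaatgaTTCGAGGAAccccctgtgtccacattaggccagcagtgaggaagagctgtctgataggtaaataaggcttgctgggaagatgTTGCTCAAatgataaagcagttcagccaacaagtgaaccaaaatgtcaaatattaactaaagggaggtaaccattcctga
Fgg: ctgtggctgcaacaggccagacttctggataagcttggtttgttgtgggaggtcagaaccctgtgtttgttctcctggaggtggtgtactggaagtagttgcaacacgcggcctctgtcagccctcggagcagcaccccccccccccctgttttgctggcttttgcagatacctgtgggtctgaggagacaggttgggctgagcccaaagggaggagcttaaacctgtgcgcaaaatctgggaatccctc
Fga held the STAT letters 234 bases and the C/EBP letters 135 bases before its start, and Fgb held them at 162 and 80 bases. Neither was found in these 250 bases of Fgg. Over all 32851 promoter windows of the same length, 7.02% held the STAT letters and 9.56% the C/EBP letters, and 5 and 10 of the 26 windows of the coagulation genes did. The other STAT windows were those of F9, Hgfac and Pros1, which changed by -0.06, 0.09 and -0.38 from WI to IR. The other C/EBP windows were those of F9, F11, Ggcx, Habp2, Hrg, Klkb1, Plaur and Procr. Their changes ranged from -0.70 for Klkb1 to 2.95 for Plaur. The marked sites do not overlap each other, and a match of letters is a description only.

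F13b, the carrier subunit of factor XIII, which cross-links fibrin, did not follow the fibrinogen chains. It had an FPKM of 94.3 in sham, 103 in WI and 77.8 in IR.

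**Figure D3:**
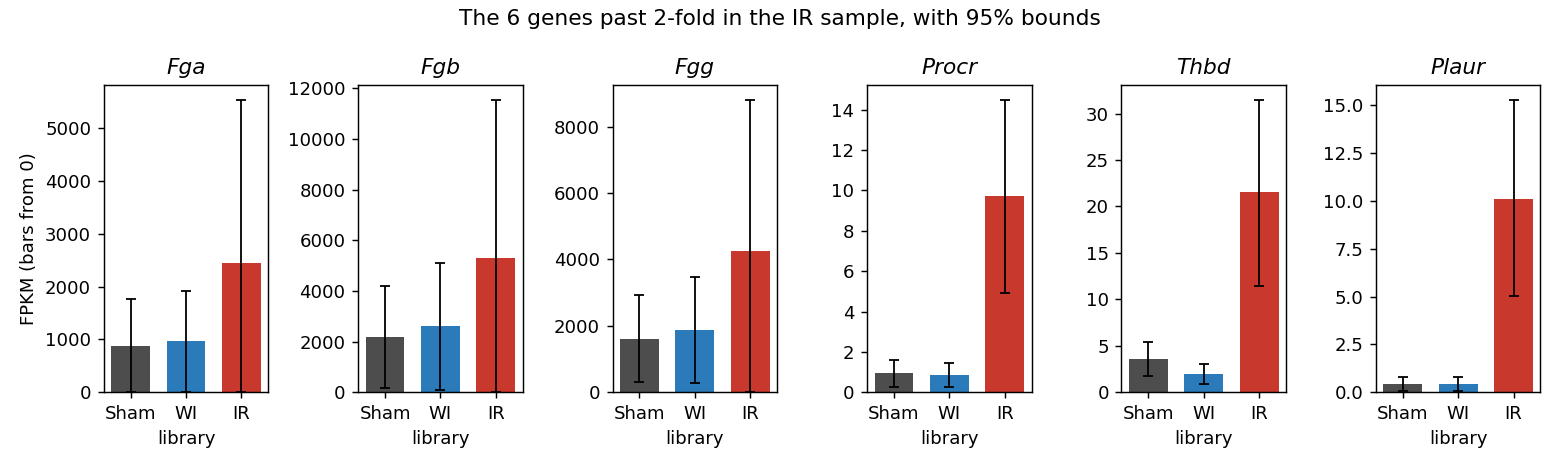
FPKM of the 6 genes past 2-fold in the IR sample (linear axis from 0, 1 bar per library, whiskers are 95% bounds). The bounds of the 3 fibrinogen chains overlap between libraries, whereas those of Procr, Thbd and Plaur in IR lie above those in sham and WI.

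The vitamin K dependent factors share a domain whose glutamates are carboxylated so that it can bind membranes, and 7 of the genes encode such factors. As deposited none was past 2-fold, and from WI to IR they ranged from -0.43 for Proz to 0.23 for F2, with a median of -0.06 beside 0.03 for all genes. With libraries set to the same sum all 7 were below 0, from -0.97 for Proz to -0.32 for F2 and Proc, and Pros1 was past 2-fold from sham to IR. F2, which encodes prothrombin, had an FPKM of 782 in sham, 807 in WI and 944 in IR. F7, which with tissue factor starts the cascade, had 53.7, 56.9 and 49.6, and F9 had 76.3, 74.5 and 71.6. F10, where the branches of the cascade meet, had 136 in sham, 170 in WI and 174 in IR. For each of these 4 procoagulant proteases the bounds of the 3 libraries overlapped. F7, F10 and Proz are neighbours on chromosome 8 of mm10 between 13026034 and 13075006, within 49 kb. From WI to IR they changed by -0.19, 0.03 and -0.43, each by less than the SD from its bounds (0.49, 0.62 and 0.55). The level of F10 per Proz was 1.2 in sham, 1.28 in WI and 1.78 in IR, and that of F10 per F7 was 2.54, 2.99 and 3.5.

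Proc, which encodes protein C, the zymogen of the enzyme that inactivates factors V and VIII, had an FPKM of 264 in sham, 264 in WI and 308 in IR. Its cofactor Pros1 had 25.7, 22.9 and 17.4. From WI to IR the changes of Proc and Pros1 were 0.22 and -0.38 as deposited, and -0.32 and -0.89 with libraries set to the same sum. Pros1 per Proc was 0.0972 in sham and 0.0564 in IR. Proz encodes protein Z, which helps Serpina10 to inhibit factor X, and it had an FPKM of 114, 132 and 97.7.

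The enzymes of the vitamin K cycle, on which these factors depend, were under 2-fold in every comparison. Vkorc1, the reductase that warfarin blocks, had an FPKM of 223 in sham, 266 in WI and 286 in IR. Ggcx, the carboxylase itself, had 10.1, 13 and 9.81. The change of Ggcx from WI to IR was -0.37, or -0.86 with libraries set to the same sum.

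F5, the cofactor that speeds the activation of prothrombin, was lower in IR than in the other samples. Its FPKM was 81.8 in sham (bounds 31.7 to 132), 75.6 in WI (30 to 121) and 46.5 in IR (19 to 74). The change from WI to IR was -0.69, or -1.22 with libraries set to the same sum, and its bounds overlapped. The files merge F5 with its neighbour Selp into a single locus, from 164115264 to 164220274 on chromosome 1 of mm10. Klkb1, which encodes plasma prekallikrein, was similar at -0.70 (-1.23 with the same sum), with an FPKM of 61.1, 69.5 and 42.3. In the list of 10792 genes ordered from the lowest change from WI to IR, Klkb1 stood at 478 and F5 at 509. Both were thus lower in IR than in the other libraries under either scaling, and past 2-fold only with the same sum.

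The other contact and intrinsic factors did not share this. F11 lies beside Klkb1 on chromosome 8 of mm10, between 45241170 and 45294835 together, and had an FPKM of 27.7, 24 and 25. Klkb1 per F11 was accordingly 2.21 in sham, 2.89 in WI and 1.69 in IR. F12, the protease that starts the contact pathway, had 214 in sham, 232 in WI and 299.7 in IR, a change of 0.37 from WI to IR, or -0.17 with libraries set to the same sum. Kng1, which carries prekallikrein and factor XI and releases bradykinin, had 992, 1059 and 995, and reads of its close copy Kng2 may be divided between the pair.

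Among liver-made components of fibrinolysis, Plg, the plasmin precursor, had an FPKM of 735 in sham, 748 in WI and 814 in IR. Cpb2, which encodes a carboxypeptidase that protects fibrin from plasmin, had 230.1, 231 and 278, in a locus that the files merge with its neighbours. Hrg, a plasminogen-binding plasma protein, had 425, 506 and 448. The proteases Habp2, which can activate factor VII, and Hgfac, which activates hepatocyte growth factor, ranged from 59 to 67.2 and from 90 to 98.7. The largest change from WI to IR among these 5 genes was 0.26, for Cpb2. Over the 18 liver-secreted factors without fibrinogen, 8 were higher and 10 lower in IR than in WI, with a median of -0.07 beside 0.03 for all genes and 0.20 for the 2909 genes that reached 20 FPKM. With libraries set to the same sum, the median of all 21 factors moved from 0.03 to -0.51, and F2, F10, F11, F12, Proc, Plg, Cpb2 and Hgfac, as well as Vkorc1, went from above to below 0.

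**Figure D4:**
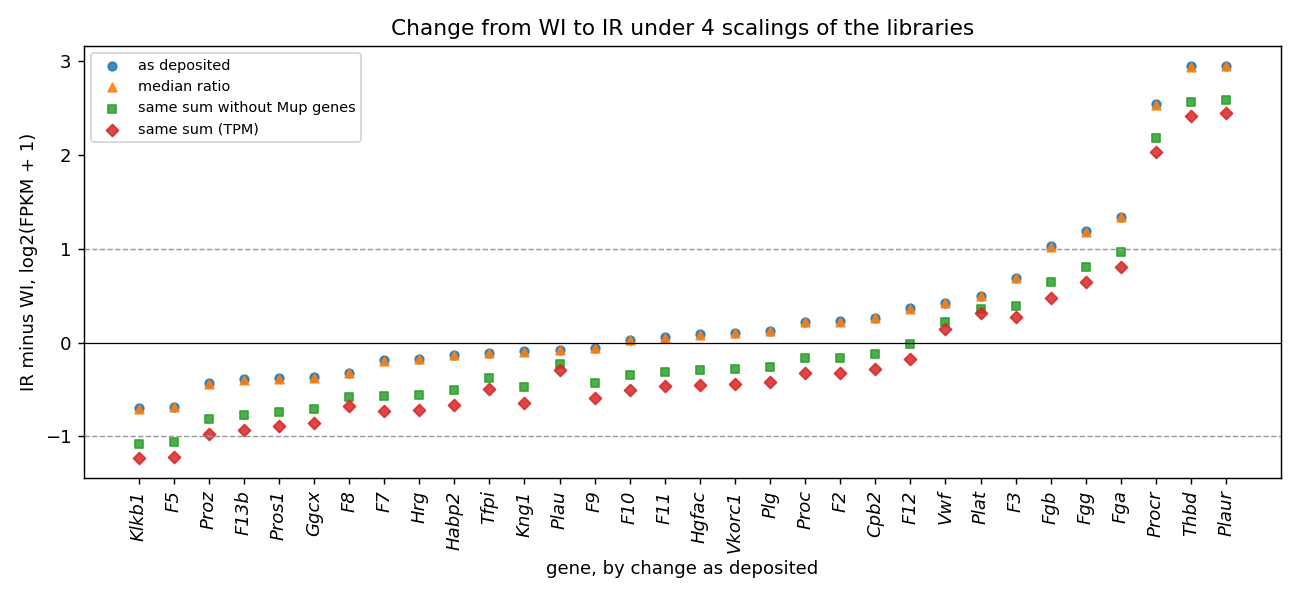
Change in log2(FPKM + 1) from WI to IR of the 32 genes under 4 scalings of the libraries, ordered by the change as deposited, with dashed lines at 2-fold. Scaling to the same sum shifts nearly all genes down, so that Fga goes from 1.34 to 0.80 and F5 from -0.69 to -1.22, while Procr, Thbd and Plaur stay past 2-fold under all 4. The median ratio leaves values almost as deposited (median of all genes 0.02 against 0.03), so it adds little to this.

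At the vessel wall the protein C pathway needs a pair of endothelial receptors. Thbd, thrombomodulin, turns thrombin from a clotting enzyme into an activator of protein C, and Procr presents protein C to that complex. Thbd (chromosome 2, 148404471 to 148408188 in mm10) was at 3.58 FPKM in sham (bounds 1.78 to 5.38), 1.93 in WI (0.866 to 3) and 21.5 in IR (11.4 to 31.5). It was lowest in WI, and IR stood apart from both other libraries. The change was -0.64 from sham to WI, under 2-fold, and 2.94 from WI to IR, an 11.1-fold difference in FPKM. Procr (chromosome 2, 155751217 to 155755478) had 0.947 in sham (0.274 to 1.62), 0.849 in WI (0.235 to 1.46) and 9.72 in IR (4.91 to 14.5). Its change from WI to IR was 2.54, or 11.4-fold in FPKM. With libraries set to the same sum the changes of Thbd and Procr were 2.41 and 2.03. Proc, the gene of the protein C that this complex activates, differed little. Thbd per 1000 of Proc was 13.5 in sham, 7.33 in WI and 69.6 in IR, and Procr per 1000 of Proc was 3.58, 3.22 and 31.5.

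Plaur, the receptor that holds urokinase on the surface of leukocytes and other cells, had the highest change of all 32 genes. Its gene is at 24462500 to 24475873 of chromosome 7 in mm10. Plaur was at 0.441 FPKM in sham (bounds 0.0698 to 0.813), 0.441 in WI (0.0716 to 0.811) and 10.1 in IR (5.03 to 15.3). The change from WI to IR was 2.95, or 23-fold in FPKM, and it stood at place 67 of the 10792 genes. Thbd stood at 70 and Procr at 101. The ligand of Plaur did not follow, as Plau, which encodes urokinase, had an FPKM of 1.16, 0.881 and 0.781. Plaur per Plau was 0.38 in sham, 0.501 in WI and 13 in IR. Plat, the vascular plasminogen activator, had 0.189 in sham (0.0299 to 0.348), 0.158 in WI (0.02 to 0.296) and 0.639 in IR (0.2 to 1.08), 4.04-fold more in IR than in WI, with bounds that overlapped at a level under the filter.

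The 250 bases before the start of Procr and Plaur are shown because these genes rose most among those with a promoter sequence in the RefSeq table used. They lie at chr2:155750967-155751216 and chr7:24462233-24462482 of GRCm38.p6, both on the plus strand, from RefSeq. The RefSeq gene itself begins at 155751125 for Procr and at 24460937 for Plaur, so the start used here is a later one. The window of Procr thus lies partly, and that of Plaur wholly, inside the gene. Capitals mark an AP-1 motif, TGANTCA, on either strand, the site of factors that respond rapidly to stress.
Procr: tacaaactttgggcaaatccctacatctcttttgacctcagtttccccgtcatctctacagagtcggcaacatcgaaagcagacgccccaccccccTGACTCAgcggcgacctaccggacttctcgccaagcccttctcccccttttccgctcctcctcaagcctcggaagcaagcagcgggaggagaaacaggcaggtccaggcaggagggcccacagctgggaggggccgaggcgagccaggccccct
Plaur: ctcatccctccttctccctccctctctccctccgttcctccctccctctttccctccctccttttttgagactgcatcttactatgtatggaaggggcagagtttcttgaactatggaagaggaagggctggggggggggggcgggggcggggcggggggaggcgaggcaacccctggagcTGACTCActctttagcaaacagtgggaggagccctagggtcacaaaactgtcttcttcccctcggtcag
The AP-1 letters begin 154 bases before the start used for Procr and 69 bases before that used for Plaur. The same letters were in 6.75% of all 32851 windows and in 6 of the 26 windows of the coagulation genes, namely those of F2, F3, Fgb (where they are not capitalised), Hrg, Plaur and Procr. Plaur also held an EGR1 motif, GCGGGGGCG or GCGTGGGCG, at 109 bases, which 3.06% of all windows did. Both genes also held the C/EBP letters, not capitalised here, at 242 bases in Procr and 59 in Plaur. F2 and Hrg, with the same AP-1 letters, changed by 0.23 and -0.18 from WI to IR. No NF-kB motif, GGGANTTCC, was in any of the 26 windows, against 1.43% of all windows.

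F3, tissue factor, which starts clotting when blood meets cells outside the vessel, had an FPKM of 1.71 in sham (bounds 0.626 to 2.79), 2.09 in WI (0.806 to 3.37) and 3.99 in IR (1.8 to 6.18). The order was sham, WI, IR, with overlapping bounds. The change from sham to IR was 0.88, short of 2-fold on the scale of FPKM + 1 (0.44 with libraries set to the same sum), and 2.33-fold in FPKM. Its inhibitor Tfpi had 3.62, 3.09 and 2.79, so F3 per Tfpi was 0.472, 0.675 and 1.43.

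F8, the cofactor of F9, which liver endothelial cells make, and Vwf, its carrier in plasma, differed in pattern. F8 had an FPKM of 4.85 in sham, 3.43 in WI and 2.56 in IR, and Vwf had 1.03, 0.684 and 1.25. F8 was highest in sham and lowest in IR, with a change of -0.72 from sham to IR, -1.11 with libraries set to the same sum, and bounds that overlapped (2.5 to 7.21 against 1.2 to 3.92). Vwf was lowest in WI, and its change from sham to IR was 0.15, or -0.15 with the same sum. F8 per Vwf was 4.7 in sham, 5.02 in WI and 2.04 in IR.

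From sham to WI, 8 of the 9 vascular and leukocyte genes had a lower value in WI (F3 alone was higher, and Plaur differed by less than the digits given), beside 16 of the 21 liver-secreted genes with a higher value and 52.5% of all genes with a higher value. All of these differences were under 2-fold. The median was -0.18 for the 9 vascular genes and 0.10 for the liver-secreted genes, beside 0.02 for all genes. The 2909 genes that reached 20 FPKM in a library also had a median of 0.10, and 65.7% of them had a higher value. Values of markers of other cell types moved in the same libraries. All 10 sinusoidal endothelial markers were lower in WI than in sham (summed FPKM 192 and 144, and 149.5 in IR), with 0 of them at 0 in any library. The 9 Kupffer cell and macrophage markers found in the files were also all lower in WI (summed FPKM 628, 335 and 236 in sham, WI and IR), none being at 0. In bulk tissue fewer cells of a type and less RNA per cell cannot be told apart, and the part of cell composition in these results was not tested.

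From WI to IR the median of the 9 vascular and leukocyte genes was 0.50, with 6 higher and 3 lower (F8, Tfpi, Plau). Among the 9 neutrophil markers found in the files, 8 were higher in IR than in WI, 6 of them past 2-fold. Their summed FPKM was 25.7 in sham, 19.4 in WI and 469 in IR. Of the defining neutrophil markers, S100a8 went from 9.17 to 212 and S100a9 from 8.07 to 204, while Mpo was listed at 0 in IR and Elane at 0 in WI. Of the 10 endothelial markers, 3 were higher in IR than in WI and the others were lower. The 3 were Lyve1 (2.73 to 33.4), Cdh5 (8.15 to 16.9) and Pecam1 (6.52 to 7.74), of which only Lyve1 was past 2-fold in FPKM + 1. For platelets, whose granules hold Vwf, 7 of 10 markers were higher in IR than in WI and 0 past 2-fold. Treml1 and Gp6 were at 0 in WI. Most of these markers were under 1 FPKM in both libraries, where FPKM + 1 cannot differ 2-fold. Their summed FPKM was 25.1, 12.6 and 13.2 in sham, WI and IR, of which Clec1b, lower in IR, held 22, 9.91 and 7.3. Pf4 went from 1.24 to 2.92 between WI and IR. The part of these cell types in the values of Plaur, Thbd, Procr and Vwf was not tested.

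A list of 40 further genes of the pathway or near it (inhibitors, receptors, processing enzymes, platelet proteins and adhesion receptors) was also followed. It was chosen with earlier results of these data known, so its shares describe the list only. Of these, 28 passed the filter, 0 were past 2-fold from sham to WI, and 6 were past 2-fold and higher from WI to IR (21.4%, beside 5.78% of all genes) with 0 lower (beside 1.43%). From sham to IR 7 were higher (25%, beside 5.35%) and 0 lower (beside 2.15%), and the added gene was Serpina10, the inhibitor that needs protein Z, with an FPKM of 87 in sham, 137 in WI and 265 in IR. S100a10, part of a plasminogen receptor with Anxa2, had 68.7, 87.2 and 355, and the leukocyte adhesion receptors Selp and Sele went from 0.415 to 8.39 and from 0.034 to 2.49 between WI and IR. The bounds of Selp, which shares its locus with F5, were wide and overlapped (0 to 5.41 in WI and 0 to 25.7 in IR). F13a1, the catalytic subunit of factor XIII, went from 0.0755 to 2.34, and Serpine2, an inhibitor of thrombin, from 0.565 to 3.04. The main liver-made inhibitor, antithrombin (Serpinc1), had an FPKM of 788, 887 and 1013 and was under 2-fold in each comparison, as was Serpinf2, the plasmin inhibitor, with 246, 324 and 457. F13a1, Serpine2, Sele and Selp passed the filter only through the IR sample.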

How the data were processed

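The authors mapped paired reads of 3 mouse liver mRNA libraries (sham, WI, IR) to mm10 with TopHat2 2.0.9 and computed FPKM per gene with Cufflinks 2.0.2 (Cuffdiff). The deposited FPKM tables give each gene its value, 95% bounds and a status, without counts. Among genes with an FPKM under 0.06, values move in steps, from which 1 fragment was worth 0.9 times as much in WI as in sham and 1.3 times as much in IR as in sham, so IR was the shallowest library. Changes are differences in log2(FPKM + 1), and the 10792 genes that reached 1 FPKM in 1 or more libraries were kept. A pseudocount of 1 understates the change of low genes. The SD of a change was derived from the bounds. With 1 library per group no test was run, and a change was called at 2-fold. The genes, classes and lists were chosen with earlier results of these data known. All 32 genes are accounted for, with values given by the role of the gene and for each gene past 2-fold. Marker lists covered hepatocytes, sinusoidal endothelium, Kupffer cells and macrophages, neutrophils, platelets, stellate cells and fibroblasts (summed FPKM 165, 119 and 126 in sham, WI and IR), lymphocytes (11.2, 10.4 and 5.19) and cholangiocytes (54.3, 62 and 93.8). Hepatocyte markers summed to 45728, 39024 and 58674. File loci count from 0 at the start, and coordinates are printed from 1. Promoters were matched by symbol for 25 of 32 genes, and motifs not named above are a heat shock element (0.466% of windows, 0 of 26), HNF1 (0.0609%, 0 of 26), CRE, TGACGTCA (1.55%, 1 of 26), and KLF, CACCC (52%, 16 of 26). Alternatives were pseudocounts of 0.1 and 0.01, fold thresholds of 1.5 and 4, other filters, other scalings, genes with status OK in all libraries, and non-overlapping bounds as the call. Some genes of the further pathway and marker lists are counted but not reported here by name. The calls were checked on artificial data with known answers. Python 3.11.15, numpy 2.4.6, pandas 2.3.3 and matplotlib 3.10.9 were used.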

Additional observations from a re-analysis of the deposited data

How the results depend on the processing

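No library was left out in turn because each group has 1. No paired analysis was possible because each group has a single library. Of 729 single values under alternatives of the 31 genes past the filter, 685 moved by less than the SD from the bounds, 44 moved by more, 30 of these with libraries set to the same sum, and none past 2-fold turned its direction. Plat, under the filter, went from 0.50 to 1.52 and 1.95 from WI to IR with pseudocounts of 0.1 and 0.01, which is past 2-fold.

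The number of these genes past the threshold was 1 in place of 0 from sham to WI at 1.5-fold. It was 3 in place of 6 from WI to IR and from sham to IR, both at 4-fold and with bounds that do not overlap as the call. For the further pathway genes, the number from sham to WI was 1 in place of 0 with a pseudocount of 0.1 or 0.01, and 3 at 1.5-fold. From WI to IR it was 12 in place of 6 at 1.5-fold, and 3 at 4-fold or at 5 FPKM or more. From sham to IR it was 3 in place of 7 at 4-fold and 4 at 5 FPKM or more, where fewer genes are counted.

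The median of the liver-secreted factors moved with the libraries set to the same sum, to -0.51 from WI to IR (0.03 as reported) and -0.51 from sham to IR (0.08). When the Mup genes were left out of that sum, a setting chosen after seeing the data, both were -0.35. The median of the vascular genes past the filter was -0.19 from sham to WI, 0.56 from WI to IR and 0.51 from sham to IR. A pseudocount of 0.1 gave -0.29, 0.85 and 0.72, and one of 0.01 gave -0.31, 0.90 and 0.75. The same sum gave 0.21 from WI to IR and 0.14 from sham to IR, or 0.30 and 0.24 without Mup genes. A filter of 5 FPKM left only Thbd, Procr and Plaur of this class, and each of them passed it through the IR sample alone. The medians were then -0.07, 2.94 and 2.46, which describe those genes and not the class. Over all genes, the share of higher calls from WI to IR was 80.2% as deposited, 29.1% with the same sum and 45.1% without Mup genes in it, and from sham to IR it was 71.3%, 20.8% and 32.3%. Scaling by the median ratio, dropping the filter and using only genes with status OK moved none of these medians by 0.1 and none of these counts by more than 1.5 times.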
